A study of Mus musculus with 12 samples.

Results

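CD8 T cells were examined in mouse tumours grown from SCC35 lines, in a series on the rejection of melanoma and its evasion of immunity. The cells were chosen by their own raw UMI counts (a UMI is a tag that marks 1 captured RNA molecule), so the levels of the gate genes are a description and carry no test. A cell needed at least 2 UMIs of Cd3e, Cd3d and Cd3g together, at least 1 UMI of Cd8a and Cd8b1 together, and 0 UMIs of Cd4, Foxp3 and the C1q genes C1qa, C1qb and C1qc. This gate found 1735 cells among 116375 cells that could be assigned to a tumour, or 1.49%. The tumours were of control lines 15 and 18 and of lines 19 and 24, which are labelled as Mif knockouts (KO), collected on days 0, 6, 10 and 16. The Mif gene product is a secreted cytokine that acts on macrophages and other immune cells. The control lines are labelled as controls of that knockout and all 4 lines carry the SCC35 name; whether a line is a single clone is not stated, and each group is only 2 lines. Single-cell 5′ libraries were made from 4 single-line pools and 2 mixed pools, with each tumour marked by a hashtag antibody. The second mixed pool also held 3 tumours called WT, which the labels place in no group. Of the CD8 T cells, 95 came from line 15, 157 from line 18, 310 from line 19, 1015 from line 24 and 158 from the WT tumours. On day 0 the gate found 0 of 5769 cells, which allows a share of up to 0.0520% (counting error only). The sources used here give no host strain, sex or age, no further treatment, and no event from which the days count.

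CD8 T cells carry an alpha-beta T cell receptor and the coreceptor CD8, and recognise peptides held by MHC class I on other cells. After activation they can kill through granules that hold perforin and granzymes, and they release interferon gamma and chemokines such as Ccl5. In tumours, repeated stimulation raises inhibitory receptors such as PD-1 (Pdcd1) and regulators such as Tox and the Nr4a factors, while Tcf7 marks cells that keep the ability to renew.

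The label was checked against T cell genes that the gate did not use. Trac, Trbc1, Trbc2, Cd247, Lck, Cd2 and Cd5 together reached 1575 CPM (UMI counts scaled to a common library total) in the 1270 gated cells with little line-cell RNA (defined below), against 3.96 CPM in cells with no Ptprc and no Cd3 UMI. NK markers summed to 46.3 CPM and gamma delta T cell markers to 29.1 CPM in the same gated cells, against 82.4 and 0.0857 CPM in cells with no Ptprc and no Cd3 UMI. Dendritic cell markers were not below that class, at 366 against 292 CPM, and reached 3393 CPM in the other Ptprc-positive cells. Macrophage and monocyte markers summed to 273 CPM, against 7908 CPM in the other Ptprc-positive cells, with the 3 C1q genes at 0 because the gate removed them. The 4 melanocytic markers Pmel, Mlana, Dct and Tyrp1 were at 0 in these cells, and also nearly absent from cells without Ptprc and Cd3 UMIs (0.196 CPM). In gated cells with more line-cell RNA the T cell genes outside the gate reached only 370 CPM. Fibroblast and stroma markers summed to 2287 CPM there, against 269 CPM in the gated cells with little line-cell RNA. Just inside the gate, 295 cells had exactly 2 Cd3 UMIs and 557 had exactly 1 CD8 UMI. Just outside it, 236 cells had 1 Cd3 UMI, 2669 had no CD8 UMI, 23 had a Cd4 UMI and 321 had a C1q UMI while meeting the rest of the rule. Only 2 barcodes of CD8 T cells were shared between libraries.

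RNA of the line cells was present in the gated cells in unequal amounts, and this touches the results on gene levels. Its share per cell was estimated from 40 genes that are high in cells without Ptprc and Cd3 UMIs and low in CD4 T cells and NK cells. Cells without Ptprc and Cd3 UMIs are not line cells alone. They also held 771 CPM of macrophage and monocyte markers and 292 CPM of dendritic cell markers. Line-cell RNA therefore stands here for RNA of that whole class. In 465 of the 1735 CD8 T cells (26.8%) the share was 30.0% or more, and these cells held 59.4% of all CD8 UMIs, with a median of 7570 UMIs per cell. The other 1270 cells had a median of 1819 UMIs and a median share of 10.2%. The limit was chosen after the values were seen, and 217 cells lay between shares of 0.2 and 0.4. By line, 23.2% (15), 38.9% (18), 21.6% (19) and 27.9% (24) of CD8 T cells were above the limit. Conventional CD4 T cells were above it at 25.0%, regulatory T cells at 31.7% and NK cells at 22.2%. Gene comparisons are therefore given for all gated cells and again for the cells below the limit.

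The targeted gene itself was read in each line. In cells without Ptprc and Cd3 UMIs, Mif (mm10 chr10:75859353-75860240) was 2198 CPM in line 15 and 2001 CPM in line 18, against 211 CPM in line 19 and 728 CPM in line 24. The tumour ranges of the control lines (1629 to 2687 and 1730 to 2235 CPM) did not overlap those of the KO lines (81.6 to 459 and 375 to 1138 CPM). CD8 T cells with little line-cell RNA held 1089 and 1153 CPM of Mif in lines 15 and 18, and 806 and 1202 CPM in lines 19 and 24. Of the Mif receptor genes in those cells, Cd44 was 118 CPM, Cxcr4 46.7 CPM and Cxcr2 had 1 UMI in all. Cd74, which encodes the MHC class II invariant chain and a Mif receptor, was 106, 47.6, 72.5 and 748 CPM in lines 15, 18, 19 and 24. Dendritic cell markers, MHC class II genes among them, were likewise highest in line 24. They summed to 93.4, 17.8, 32.8 and 539 CPM in the same order. The part of RNA from such cells in the Cd74 levels was not tested. Of 4 tested genes of the list of Mif, its homologue and receptors, 0 passed between KO and control CD8 T cells in edgeR. Over all genes 45 of 4192 (1.07%) passed, so 0 of 4 is no result about this list.

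CD8 T cells made up a larger share of KO than of control tumours. The 18 control tumours of days 6 to 16 held 0.536% ± 0.477 (SD) CD8 T cells, with a lowest value of 0.147%, a median of 0.360% and a highest of 1.97%. The 17 KO tumours held 2.29% ± 2.11 (SD), from 0.334% over a median of 1.57% to 7.84%. The groups overlapped, and 5 KO tumours lay above every control tumour. A share cannot tell more CD8 T cells from fewer cells of other types. The difference of 1.75 percentage points gave p = 3e-05 in a two-sided permutation test with labels permuted within day (100000 resamples, Benjamini-Hochberg adjusted p = 9e-05 over 3 tumour-level measures). The labels do not say whether tumours came from separate animals, so p-values measure the spread between these tumours. Over the 4 line means, where an exact permutation test cannot give less than 0.333, p was 0.333.

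Line 24 on day 16 held the highest shares. Its 3 tumours of that day had 7.84% (111 of 1416 cells), 5.08% (372 of 7330) and 6.18% (220 of 3562). Line 24 averaged 1.32% on day 6 (2 tumours), 2.23% on day 10 and 6.36% on day 16. Line 19, the other KO line, stayed between means of 1.05% and 1.37% over the 3 days. The control lines had means of 0.584%, 0.810% and 0.310% (line 15) and of 0.362%, 0.632% and 0.520% (line 18) on days 6, 10 and 16. Within days, the KO mean was higher on day 6 (1.18% against 0.473%, exact permutation p = 0.0130, adjusted 0.0303 over 7 tests within days) and on day 16 (3.87% against 0.415%, exact permutation p = 0.00866, adjusted 0.0303). On day 10 it was 1.64% against 0.721% (exact permutation p = 0.0887, adjusted 0.155). These tests within days were not planned. Without line 24 the KO mean was 1.17% and the difference kept its direction over all libraries (exact permutation p = 0.00758). Within the mixed libraries alone, with 6 tumours a group, the means were 0.684% and 2.15% (exact permutation p = 0.148). In the first mixed library, line 19 had 0.437%, 1.29% and 0.334% on days 6, 10 and 16, and line 15 had 0.741%, 1.97% and 0.299%. There line 19 was lower than line 15 on days 6 and 10 and higher on day 16. The line 18 tumour of day 16 in that library had 0.571%. Each single-line library held 1 line, so line and library cannot be told apart outside the mixed libraries. Among cells with a Ptprc UMI, CD8 T cells took 2.02% of control and 6.56% of KO tumours (permutation p = 2e-05, the same test).

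**Figure D1:**
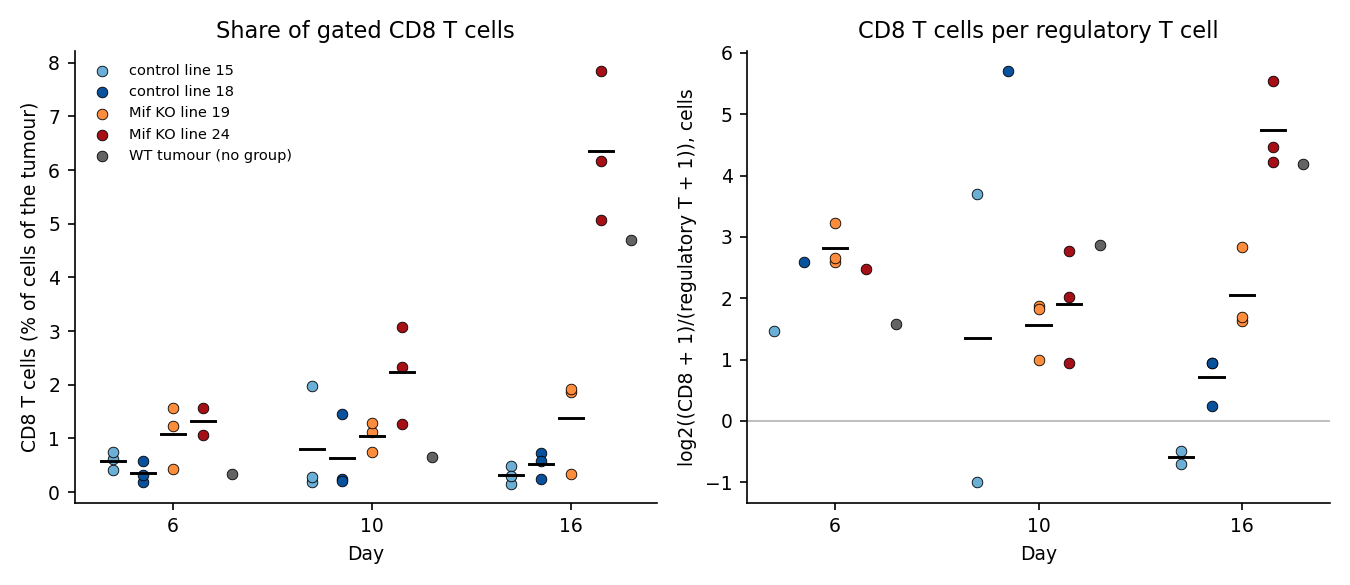
Left, gated CD8 T cells as a percentage of the cells of each tumour, by day; right, log2 of the number of CD8 T cells plus 1 over the number of regulatory T cells plus 1, for tumours with at least 20 gated T cells. Points are tumours coloured by line and bars are line means; the 3 line 24 tumours of day 16 sit between 5.08% and 7.84%, above every control tumour.

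Relative to regulatory T cells, the Foxp3-positive T cells that restrain immune responses, CD8 T cells were more numerous in KO tumours on day 16. The measure was the log2 ratio of CD8 to regulatory T cells, each with 1 added, in tumours with at least 20 gated T cells. On day 16 the 5 control tumours ran from -0.70 over a median of 0.25 to 0.95, and the 6 KO tumours from 1.64 over 3.53 to 5.54. All 6 KO tumours lay above all 5 control tumours (difference 3.21, exact permutation p = 0.00649, adjusted 0.0303 over 7 tests within days). On day 10 the difference was in the other direction, with a mean of 2.80 in 3 control and 1.74 in 6 KO tumours (difference -1.06, exact permutation p = 0.5). The highest control tumour of that day, of line 18, had 51 CD8 T cells and 0 regulatory T cells. Over all days, which was the planned test, the means were 1.34 ± 2.12 (SD, n = 10) and 2.61 ± 1.26 (SD, n = 16). The exact permutation p was 0.0744 (adjusted 0.112), above the threshold. Over the 4 line means an exact permutation test gave p = 0.333, its lowest possible value. The tests within days were not planned. With 1 line left out the difference was 2.02 without line 18 (exact permutation p = 0.0130), 0.527 without line 15 (p = 0.517), 1.87 without line 19 (p = 0.0866) and 0.810 without line 24 (p = 0.295).

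Nkg7, Srgn (the granule proteoglycan serglycin), Ccl5 and Gzmb were found in 80.7%, 67.6%, 66.0% and 43.3% of the thinned gated cells. To compare cell types at 1 depth, 1185 of the 1270 CD8 T cells with little line-cell RNA were thinned to 1000 UMIs each, and 85 shallower cells were left out. These cells are of all lines, WT tumours included. The conventional CD4 T cells (551), NK cells (224) and cells without Ptprc and Cd3 UMIs (2000) beside them were treated the same way, the first 2 also with little line-cell RNA. The cells without Ptprc and Cd3 UMIs give the background share for a gene they should lack. Nkg7, a granule membrane protein, was found in 80.7% of thinned CD8 T cells, against 46.5% of CD4 T cells, 83.5% of NK cells and 0.4% of the background cells. Ccl5 was found in 66.0% of CD8 T cells, 18.0% of CD4 T cells and 42.9% of NK cells, with a background of 7.85%. Granzyme B (Gzmb) was found in 43.3%, against 14.7% of CD4 T cells and 64.7% of NK cells. Before thinning these CD8 shares were 93.1% (Nkg7), 74.9% (Ccl5) and 54.8% (Gzmb).

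Granzyme A and perforin were found in smaller shares of CD8 T cells than of NK cells, and granzyme K in a larger one. Granzyme A (Gzma) was found in 10.5% of CD8 T cells and 63.8% of NK cells, and perforin (Prf1) in 6.41% and 34.4%. Granzyme K (Gzmk), typical of less differentiated effector and memory CD8 T cells, was found in 8.10% of CD8 T cells and in 0 of the 224 NK cells. NK cells were gated on UMIs of Ncr1 and Klrb1c without Cd3 or C1q UMIs, so the NK share of the receptor Ncr1 is a description. It was 38.4%, against 0.0844% of CD8 T cells. Klrd1, the CD94 chain that NK cells share with activated CD8 T cells, was found in 28.1% of CD8 T cells. Granzyme C (Gzmc) was found in 45.5% of NK cells, and granzymes C to G were each in at most 2.19% of CD8 T cells. Interferon gamma (Ifng) was found in 12.6% of CD8 and 22.3% of CD4 T cells.

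Among inhibitory receptors, Tigit was found in 17.8% of CD8 T cells, Pdcd1 in 17.2%, Ctla4 in 13.0%, Lag3 in 7.85% and Havcr2 in 3.71%. Pdcd1 was found in 24.0% of CD4 T cells, 1.79% of NK cells and 0.100% of background cells. The regulator Tox was found in 5.32% and Tcf7 in 5.15% of CD8 T cells. Ccr7, a chemokine receptor for homing to lymph nodes, was found in 12.6%. Of 61 thinned cells with a Tcf7 UMI, 18.0% also had a Gzmb UMI, against 44.7% of the cells without Tcf7. Pdcd1 and Gzmb were found together in 105 cells, which were 20.5% of the Gzmb-positive cells. The cycling gene Mki67 was found in 13.1% of CD8 T cells, 9.26% of CD4 T cells and 8.95% of cells without Ptprc and Cd3 UMIs. These shares pool cells of many tumours, most of them of line 24 (675 of the 1185 cells), and carry no test.

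The same shares varied by day and line. On days 6, 10 and 16, Tnfrsf9 (the costimulatory receptor 4-1BB) was found in 16.7%, 18.5% and 38.9% of the thinned CD8 T cells of the 4 lines and Rgs16, a brake on G protein signalling, in 4.67%, 9.60% and 25.6%. Satb1, a chromatin organiser of resting T cells, was found in 22.7%, 19.2% and 10.9%. Days and lines were mixed unequally: line 24 supplied 29 of the CD8 T cells with little line-cell RNA on day 6 and 513 on day 16. Tnfrsf9 was found in 35.7% of line 24 and 16.8% of line 19 cells, and Rgs16 in 24% and 8.82%, so the day and the line cannot be told apart in these shares. By line, in the order 15, 18, 19 and 24, Gzmb was found in 49.3%, 48.8%, 34.0% and 44.1%, and Rgs2, of the same family as Rgs16, in 1.41%, 3.66%, 11.3% and 23.6%. The transcription factor Ikzf2 (Helios) was found in 2.82%, 3.66%, 16.4% and 17.3%, and the early activation marker Cd69 in 29.6%, 32.9%, 25.6% and 15.3%. For Rgs2 and Ikzf2 both KO lines lay above both control lines, and for Cd69 below them. Lines 15, 18, 19 and 24 held 71, 82, 238 and 675 thinned cells, so the low control shares of Rgs2 and Ikzf2 rest on very few cells with a UMI. These shares by line carry no test.

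**Figure D2:**
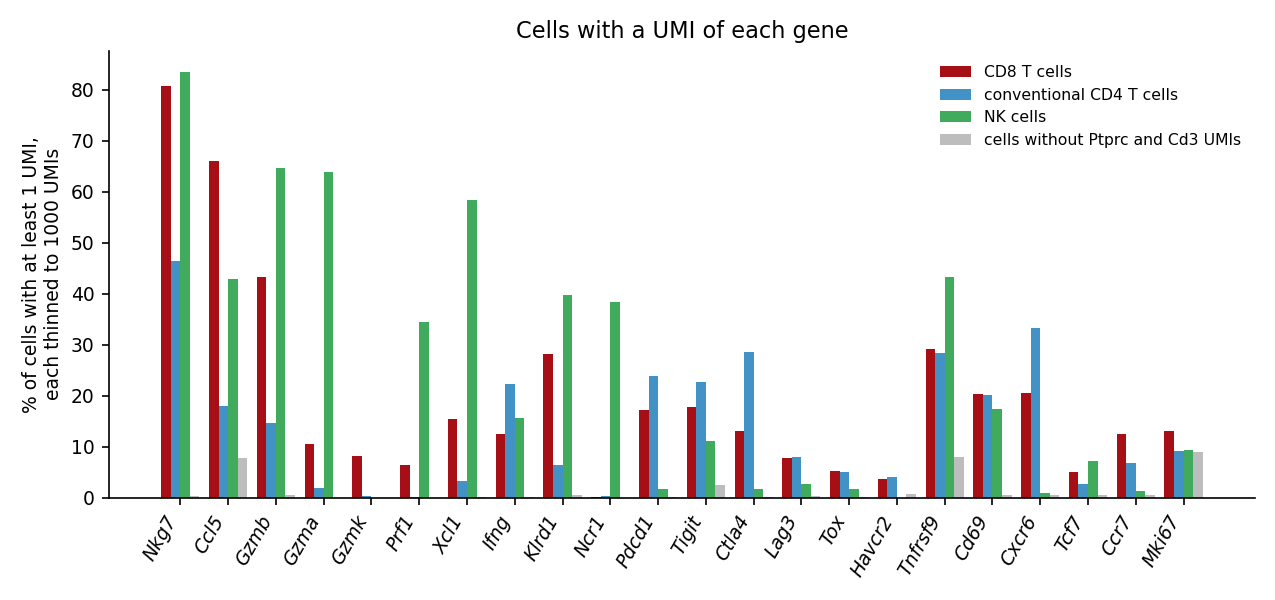
Percentage of cells with at least 1 UMI of each gene after thinning every cell to 1000 UMIs, for CD8 T cells, conventional CD4 T cells and NK cells with little line-cell RNA and for cells without Ptprc and Cd3 UMIs. Bars start at 0. Nkg7 and Ccl5 are the tallest CD8 bars (80.7% and 66.0%). Ncr1 was part of the NK gate, so its NK bar (38.4%) is a description.

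Conventional CD4 T cells (the same gate with Cd4 in place of the CD8 genes) were the closest population for a comparison within tumours. Counts were summed per tumour and cell type in 10 tumours with at least 20 cells of each; all were KO tumours of lines 19 and 24, so the comparison says nothing of control tumours. With edgeR and the tumour as a pairing term, 189 of 5950 genes (3.18%) passed an adjusted p of 0.05. Of these, 67 (1.13%) were higher in CD8 and 122 (2.05%) higher in CD4 T cells, and gate genes were left out. Levels below are CPM scaled by TMM factors, given as lowest, median and highest over the 10 tumours. In 40 genes (0.672%) CD8 was higher in every tumour, and in 73 (1.23%) CD4 was.

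Most called genes of the cytotoxic list were higher in CD8 T cells. Of its 15 tested genes 7 were higher in CD8 T cells (Gzma, Gzmb, Gzmk, Prf1, Nkg7, Ctsw and Cst7) and 2 were higher in CD4 T cells (Srgn and Ifng). The median log2 difference of the list was 1.02, against 0.03 over all genes tested. Prf1 (mm10 chr10:61297833-61304680) had CD8 levels of 0, 27.5 and 85.7 CPM and CD4 levels of 0, 0 and 18.8 CPM. It was higher in CD8 T cells in 8 of 10 tumours and lower in 1 (log2 difference 3.41 ± 0.53 SE). The last, of line 24 on day 10, had only 33 CD4 T cells, and 18.8 CPM was the lowest level above 0 among the leading genes there. Gzmk stood at 13.3, 50.9 and 102 CPM in CD8 against 0, 6.39 and 18.8 CPM in CD4 T cells, and was higher in CD8 in all 10 tumours. Nkg7 was also higher in all 10, at 577, 1210 and 1702 CPM against 276, 505 and 1004 CPM. Ifng went the other way, at 28.4, 81.0 and 218 CPM in CD8 and 78.0, 319 and 690 CPM in CD4 T cells (log2 difference -1.75 ± 0.20 SE, higher in CD4 in 9 of 10 tumours).

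Ly6c2 and Ccl5 had the highest CD8 levels among the leading genes. Ly6c2, a surface protein of activated and memory CD8 T cells (mm10 chr15:75108158-75111970), had CD8 levels of 392, 1010 and 1651 CPM and CD4 levels of 20.9, 75.8 and 584 CPM. Its log2 difference was 3.33 ± 0.25 SE. Ccl5, the chemokine RANTES, stood at 1380, 2405 and 3117 CPM in CD8 and 43.9, 490 and 854 CPM in CD4 T cells (log2 difference 2.51 ± 0.25 SE). For neither gene did the pairs of any tumour cross. The chemokine Xcl1, which draws Xcr1-positive dendritic cells, was higher in CD8 T cells in all 10 tumours (106, 210 and 600 CPM against 0, 32.5 and 63.3 CPM). Cd7, Cd160 and Sidt1 were likewise higher in CD8 T cells in 10 of 10 tumours and Klre1 in 9. Dapl1, a gene of resting T cells, had 0, 11.2 and 96.4 CPM in CD8 T cells, with UMIs in 8 tumours, and 0 in all 10 CD4 sums.

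Of 7 tested NK receptor genes, 4 were higher in CD8 T cells (Klrk1, Klrd1, Klrc1 and Klre1) and 0 lower, with a median log2 difference of 1.38. Of the memory and progenitor genes, Tcf7, Ccr7 and Dapl1 were higher in CD8 T cells and 0 were lower. Tcf7 stood at 16.9, 40.1 and 78.0 CPM in CD8 against 0, 16.5 and 29.3 CPM in CD4 T cells. The costimulatory list ran towards CD4 T cells, with 6 of 10 genes higher there (Icos, Tnfrsf4, Tnfrsf18, Cd2, Cd5 and Cd6) and Cd27 higher in CD8. Tnfrsf4, which encodes OX40, stood at 13.3, 45.4 and 140 CPM in CD8 and at 322, 431 and 1073 CPM in CD4 T cells.

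Other lists favoured CD4 T cells. In the residency list 4 of 6 tested genes (Cxcr6, Rgs1, Crem and Dusp4) were lower in CD8 T cells, in the effector differentiation list 3 of 8 (Id2, Bhlhe40 and Batf), and among cytokine receptors 4 of 12. Of 13 inhibitory and exhaustion genes, Cd160 and Ikzf2 were higher in CD8 T cells and Ctla4, Nr4a1, Nr4a3 and Cish higher in CD4 T cells. Pdcd1, Lag3 and Tigit did not pass the test. Cd40lg, the ligand with which CD4 T cells help other cells, was 0, 0 and 13.4 CPM in CD8 and 29.3, 65.7 and 282 CPM in CD4 T cells (log2 difference -4.91 ± 0.46 SE). Ebi3, Ccl1, Tnfsf11 (RANK ligand), Ccr8, Penk, Csf2, Cd70 and St6gal1 were the other leading CD4 genes, with log2 differences from -4.31 to -3.00. Of 16 cell cycle genes 0 passed at the adjusted threshold, and their median was 0.27.

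With only cells below the line-cell RNA limit and at least 10 cells of each type, 14 tumours entered, 2 of them control. Of 2076 tested genes 177 (8.53%) were then higher in CD8 and 187 (9.01%) in CD4 T cells, 17.5% together. The same 9 cytotoxic genes passed in the same directions. Other lists changed: Rgs1 no longer passed, and the NK receptor list gained Tyrobp as lower in CD8 T cells. Of the glycolysis and hypoxia list, 5 of 9 tested genes were lower in CD8 T cells, against 0 of 12 in the first fit. Without line 24 the count over all gated cells fell to 23, with 9 higher in CD8 T cells.

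**Figure D3:**
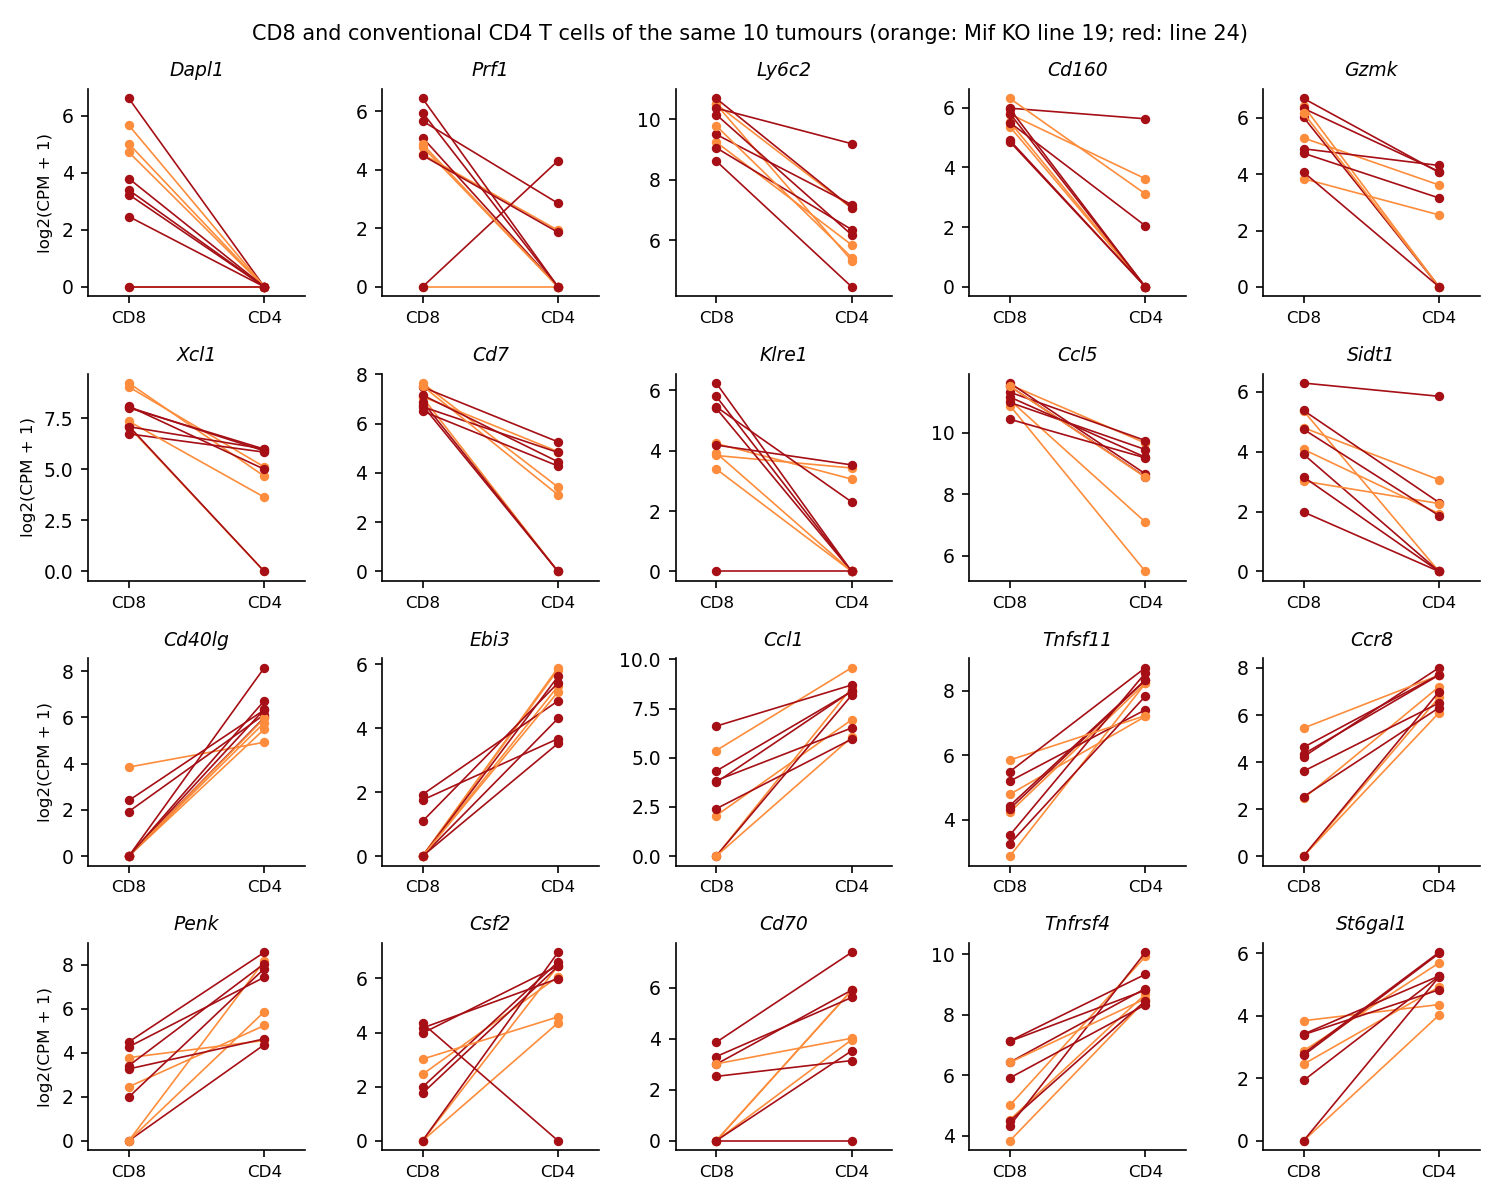
Levels on a log2(CPM + 1) axis in CD8 and conventional CD4 T cells of 10 KO tumours for the 10 leading genes in each direction; each line joins the 2 cell types of a tumour (orange, line 19; red, line 24). Lines for Ly6c2 and Ccl5 all fall from CD8 to CD4 and those for Cd40lg and Tnfsf11 all rise; for Prf1 1 line crosses upwards.

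KO and control tumours were then compared for gene levels within CD8 T cells. Only 4 control tumours reached 20 gated cells (line 15 on day 10, line 18 on day 10, and line 18 on day 16 in 2 libraries; 139 cells), against 14 KO tumours, 1427 cells in all. The sums held 57271 to 1522422 UMIs. With edgeR and day as a term, 35 of 4192 genes (0.835%) were higher and 10 (0.239%) lower in KO tumours, 1.07% together (30 and 16 with RLE size factors). Without line 18, 0 genes passed in edgeR (370 at an unadjusted p under 0.05). That fit has 1 control tumour, assumed to vary like the KO tumours, and its log2 differences kept their direction for Il21r (1.81), Nr4a3 (1.79) and Kdm6b (1.73). Leaving out single control tumours left 4, 8 and 4 genes for the 3 line 18 tumours and 34 for the line 15 tumour. Sums per line, where the 4 lines are the replicates, gave 0 calls in edgeR, with 603 genes at an unadjusted p under 0.05, and so did library as a term, with 383.

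Among cytokine receptors, Il21r, the receptor of interleukin 21 (mm10 chr7:125603429-125633570), was 33.1 CPM in the line 15 tumour and 33.3, 28 and 31.6 CPM in the line 18 tumours. In KO tumours it ran from 39.1 over a median of 149 to 324 CPM. All 14 KO tumours lay above all 4 control tumours (log2 difference 2.31 ± 0.40 SE, edgeR adjusted p = 0.00472). Il2rb, the beta chain of the interleukin 2 and 15 receptors, was 88.4, 138, 112 and 63.1 CPM in the same control tumours and 125, 228 and 647 CPM (lowest, median, highest) in KO tumours. It rose by a log2 difference of 1.35 ± 0.32 SE (edgeR adjusted p = 0.0397), with 13 of 14 KO tumours above all controls. Line 15 entered with 1 tumour. Pooled over all tumours of a line in cells with little line-cell RNA, Il21r was 187, 83.2, 195 and 351 CPM in lines 15, 18, 19 and 24. Il2rb was 367, 214, 366 and 492 CPM there, so control line 15 and KO line 19 were close for each gene. The Il2rb call was lost when any 1 of the 4 lines was left out (edgeR adjusted p from 0.0574 to 0.793).

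Of the inhibitory and exhaustion list and the residency list, 3 genes rose: Nr4a3, Ikzf2 and Rgs2. Nr4a3, a nuclear receptor (mm10 chr4:48045153-48086447), was 33.1, 33.3, 14.0 and 7.89 CPM in control tumours. KO tumours ran from 48.9 over 108 to 176 CPM, all 14 above every control (log2 difference 2.21 ± 0.36 SE, edgeR adjusted p = 0.00378). Kdm6b, a histone H3 lysine demethylase (mm10 chr11:69398508-69413675), was 33.1, 23.8, 28 and 39.4 CPM in control and 58.8, 105 and 160 CPM in KO tumours, again without overlap (1.91 ± 0.30 SE). Both calls held when any single control tumour was left out. Rgs2 was 49.7, 42.8, 28 and 63.1 CPM in control and 63.7, 131 and 217 CPM in KO tumours, with no overlap (1.72 ± 0.33 SE). Ikzf2 was 27.6, 4.75, 14.0 and 71.0 CPM in control and 48.1, 122 and 202 CPM in KO tumours, and 12 of 14 KO tumours lay above all controls (1.99 ± 0.46 SE). The Rgs2 and Ikzf2 calls were lost when any 1 of the line 18 tumours was left out. Of 12 tested inhibitory and exhaustion genes, Nr4a3 and Ikzf2 passed, 11 had positive differences, and the median was 0.90 against 0.02 over all genes. Pdcd1 (0.64 ± 0.39 SE) and Tox (0.997 ± 0.65 SE) did not pass.

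Ccl5 (mm10 chr11:83525778-83530518) was 961, 1231, 378 and 789 CPM in control and 1404, 2499 and 4557 CPM in KO tumours, all 14 above every control (1.67 ± 0.28 SE, edgeR adjusted p = 0.00378). In cells with little line-cell RNA its log2 difference was 0.72 (edgeR adjusted p = 0.246), and -0.027 there without line 18. Ramp3, a calcitonin receptor partner, had 0 counts among 629421 UMIs of the 4 control tumours and 188 counts in 13 of 14 KO tumours. Against the limit that 3 counts over the control group allow, its KO level of 35.6 CPM was at least 7.46-fold higher (counting error only, without the spread between tumours). Dgat1, an enzyme of triglyceride synthesis, Cnot6l and Mknk2 also rose, by log2 differences of 1.88, 1.82 and 1.81. Ptprc (CD45) rose by 0.67 over all gated cells, and its difference was -0.00033 in cells with little line-cell RNA. The Ptprc call was lost when any 1 line or control tumour was left out (lowest edgeR adjusted p = 0.0676). Cd7 rose by 1.72 and was 0.21 in those cells, where it did not pass.

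The cytotoxic list showed no called gene: 0 of 12 tested genes passed in edgeR, against 45 of 4192 (1.07%) over all genes. Its lowest edgeR adjusted p was 0.196, and its median log2 difference was -0.01. In cells with little line-cell RNA 0 of 11 passed, against 84 of 1025 (8.2%) over all genes, with a lowest edgeR adjusted p of 0.105 and a median of -0.44. At such shares, 0 calls among so few genes is no result about this list or those below. Gzmb was 469, 1008, 826 and 221 CPM in control and 196, 563 and 965 CPM in KO tumours (lowest, median, highest), so that the groups overlapped widely (-0.31 ± 0.38 SE). Of the memory list (9 genes), the effector differentiation list (5) and the costimulatory list (9), 0 genes passed, with medians of 0.51, 0.51 and 0.38; in cells with little line-cell RNA the medians were -0.29, -0.022 and 0.091, and Bcl2 and Cd2 fell. Of 16 cell cycle genes 0 passed, with a median of -0.26.

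Among the falls, the glycolytic enzyme Pkm (mm10 chr9:59656368-59679375) was 2303, 2286, 2212 and 2122 CPM in control and 1000, 1538 and 1901 CPM in KO tumours. All 14 KO tumours lay below every control (-0.60 ± 0.12 SE, edgeR adjusted p = 0.0169). All 10 tested glycolysis and hypoxia genes had negative differences, with a median of -0.58, but Pkm alone passed. The other named falls were Hspb1, Wsb2, Mt1, Vim, Cd9, Plp2, Gpi1, Arl6ip5 and Rhoa, from -1.41 to -0.50. The Wsb2 call was lost when any 1 line or control tumour was left out (lowest edgeR adjusted p = 0.0636). Hspb1, Mt1 and Cd9 are among the 40 genes that define the line-cell RNA share. Hspb1 was 71.6 CPM in CD8 T cells with little line-cell RNA and 1042 CPM in cells without Ptprc and Cd3 UMIs, Vim 1835 and 11520 CPM, and Mt1 694 and 4889 CPM. The part of line-cell RNA in these falls was not tested other than by the comparison in cells with little of it. Over all 4192 genes, 30 (0.716%) were higher in every KO than in every control tumour and 14 (0.334%) lower.

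Cells with little line-cell RNA gave a second view of the same question, with 6 control and 15 KO tumours of at least 10 such cells. Of 1025 tested genes 37 (3.61%) were higher and 47 (4.59%) lower in KO tumours, 8.2% together. Gate genes were left in the fits of KO against control, and the gate gene Cd8b1 is among the 47 falls. Its call is no result, because the cells were chosen by it. Of the rises, 19 were shared with the first comparison (54.3% of its rises and 51.4% of these), among them Il21r, Il2rb, Nr4a3, Ikzf2, Kdm6b, Rgs2 and Dgat1. Nr4a3 differed by 2.96 ± 0.50 SE, with all 15 KO tumours above all 6 control tumours. Kdm6b differed by 2.34 ± 0.51 SE (14 of 15) and Rgs2 by 2.34 ± 0.45 SE (11 of 15). How many of the 1025 tested genes separated the groups fully was not counted in these cells. Nr4a2 (1.4) and Rgs16 (2.02) passed here too, so that 4 of 8 tested inhibitory and exhaustion genes rose, and 0 fell. Of the falls, Pkm, Rhoa and Vim were shared (30.0% of the first 10). Mt1 had a difference of 0.33, in the other direction.

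In these cells 5 of 8 tested glycolysis genes fell: Eno1 (-0.91), Aldoa (-0.79), Tpi1 (-0.76), Pkm (-0.64) and Gapdh (-0.57). Aldoa and Pkm were lower in all 15 KO tumours than in all 6 control tumours. The share of all tested genes with such a separation was not counted in these cells. Abundant genes outside this list fell too, among them Eef1a1 (-0.54), Coro1a (-0.54), Hspa8 (-0.43), Tmsb10 (-0.42) and Actb (-0.39). Other abundant genes rose, among them Gm42418 (0.57) and Fth1 (0.69). The part of a broad shift in RNA composition in the glycolysis falls was not tested. The survival gene Bcl2 (-1.30), the inhibitory NK receptor gene Klrc1 (-1.29), the activation marker Cd69 (-1.07), the common gamma chain Il2rg (-0.84) and Cd2 (-0.54) fell as well. Of mitochondrially encoded genes, 6 of 12 tested passed as higher in KO tumours and all 12 were positive, with a median of 0.90 (5 of 13 and 0.69 over all gated cells). Control line 15 and KO line 19 were close for mt-Atp6 (means of 1406 and 1423 CPM), mt-Nd2 (1450 and 1463) and mt-Nd4l (1937 and 2036). They were further apart for mt-Co1 (5711 and 7521 CPM), mt-Nd4 (725 and 905) and mt-Nd5 (823 and 995). For all of these, line 18 was lowest and line 24 highest. The median mitochondrial share of these CD8 T cells was 1.28% (15), 0.948% (18), 1.64% (19) and 1.74% (24). The part of RNA quality in the result was not tested. Of the regulatory T cell markers, Foxp3 was at 0 by the gate, and Foxp3, Il2ra, Ctla4 and Ikzf2, the last a rise named above, summed to 181, 184, 359 and 424 CPM in lines 15, 18, 19 and 24. Dendritic cell markers summed to 539 CPM in line 24 and to 93.4, 17.8 and 32.8 CPM in lines 15, 18 and 19. The part of either marker list was not tested. With line 18 left out 5 genes passed, and within the mixed libraries 0 in edgeR, with 74 at an unadjusted p under 0.05.

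**Figure D4:**
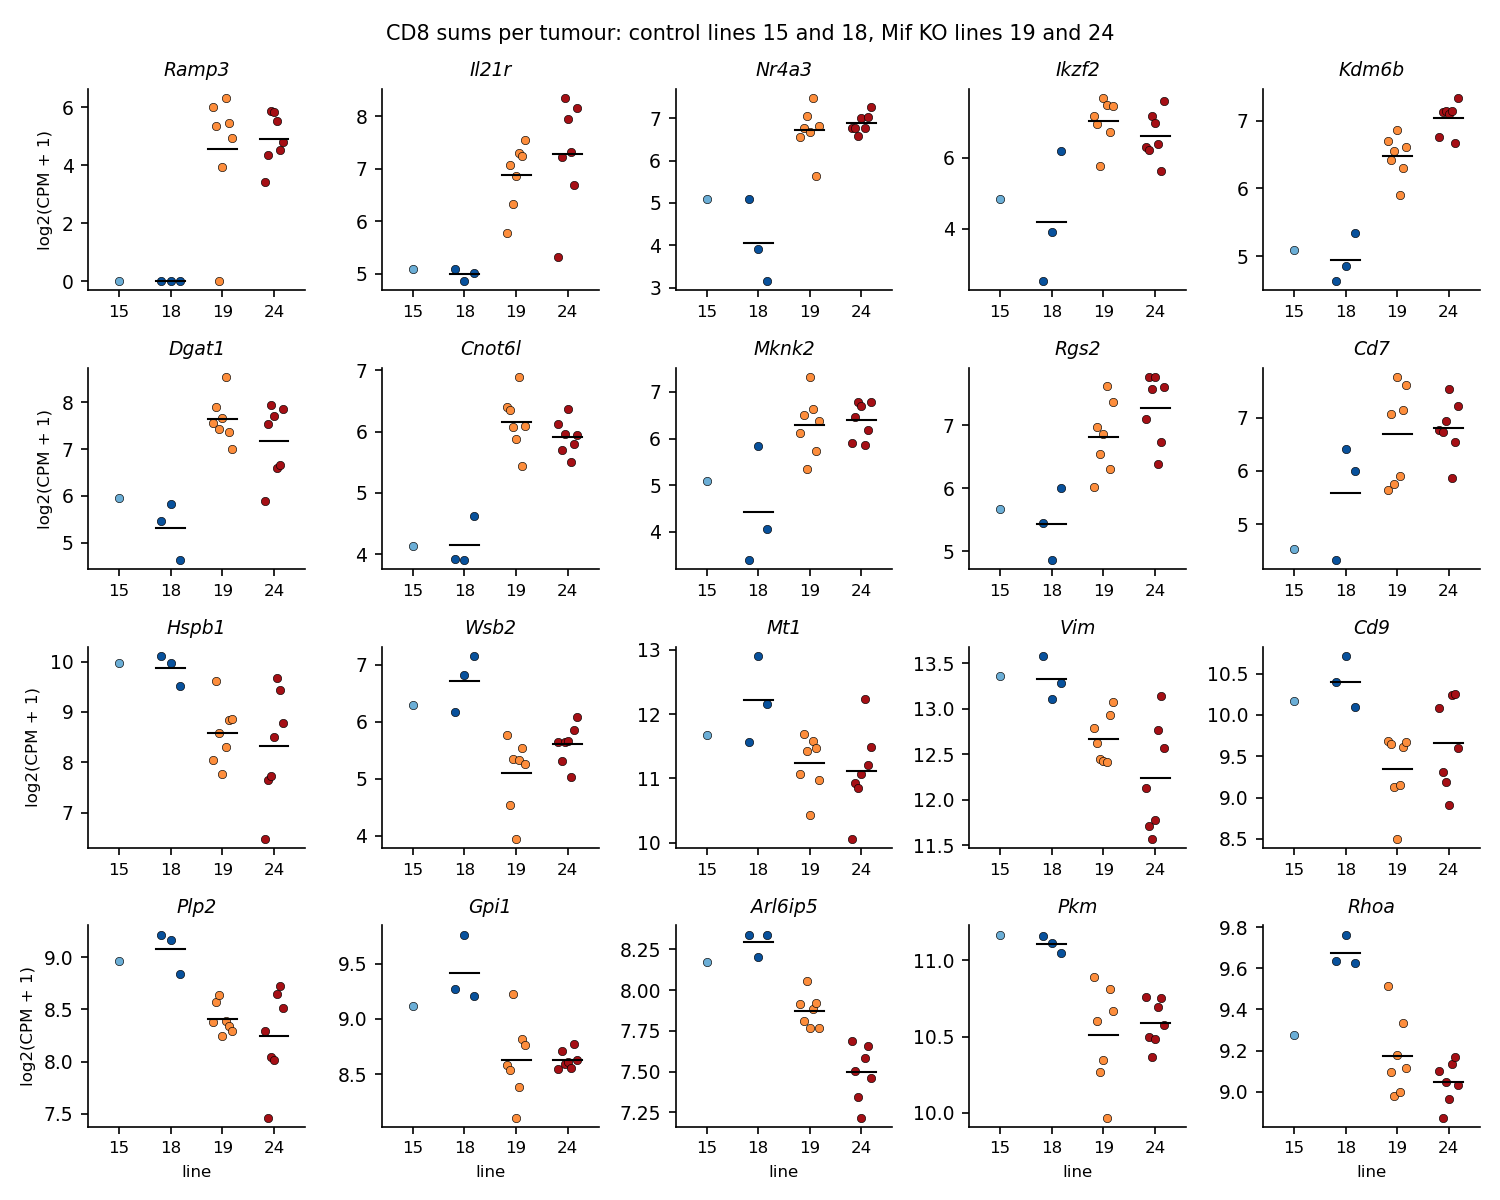
Levels on a log2(CPM + 1) axis, TMM-scaled, in the CD8 sums of 4 control and 14 KO tumours for the 10 largest rises and 10 largest falls; points are tumours, bars are line means where a line has more than 1 tumour. The single line 15 point and the 3 line 18 points lie below every KO point for Il21r, Nr4a3, Kdm6b, Cnot6l and Rgs2 and above every KO point for Wsb2, Plp2, Arl6ip5 and Pkm.

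Between days few genes changed in CD8 T cells. From day 10 to day 16, with line as a term, 2 of 5773 genes passed (0.0346%, edgeR). Ly6c2 fell by 1.02 on the log2 scale (SE 0.19, edgeR adjusted p = 0.0477), from 845, 1206 and 1493 CPM over 8 tumours of day 10 to 314, 543 and 1184 CPM over 7 of day 16 (unscaled, lowest, median and highest). The 2 control tumours of day 10 had 1220 (line 15) and 1105 CPM (line 18) of Ly6c2. The 2 other control tumours, of day 16 and both of line 18, had 1049 and 1184 CPM. The 5 KO tumours of day 16 lay between 314 and 677 CPM, so the low values of day 16 were all of KO tumours. The T cell receptor gamma segment Trgv2, named after its values were seen, rose from 0, 0 and 7.78 CPM to 11.4, 35.6 and 69.8 CPM (2.97 ± 0.48 SE, edgeR adjusted p = 0.0111), with every day 16 tumour above every day 10 tumour. In cells with little line-cell RNA, gamma delta T cell markers summed to 41.1 CPM in line 24, which supplied 3 of the 7 day 16 tumours, and to 6.22, 11.9 and 5.18 CPM in lines 15, 18 and 19, and their part was not tested. Without line 24 neither gene passed (edgeR adjusted p = 0.999 for both). In cells with little line-cell RNA (at least 20 a tumour) 6 genes passed. Tnfrsf9 rose by 1.55, Ifng by 1.85 and Rgs16 by 1.72, while Ly6c2, Zfp36l2 and Sp110 fell by 1.39, 1.09 and 1.15. At 10 cells a tumour 0 genes passed in edgeR, with 93 at an unadjusted p under 0.05. From day 6 to day 10, 0 of 5773 genes passed (0%), in edgeR and in DESeq2, with 302 at an unadjusted p under 0.05 in edgeR.

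Over all gated cells, granzyme A was the only gene of 5029 (0.0199%) whose change from day 10 to day 16 differed between KO and control tumours in edgeR. The 2 control tumours of day 10 had 41 and 112 Gzma counts, or 217 and 499 CPM, and the 2 of day 16 had 0 counts among 215758 UMIs. Against 3 counts over that group, the control level of day 10 (370 CPM) was at least 26.6-fold higher (counting error only). That limit leaves out the spread between tumours, and single KO tumours ran from 28.1 to 370 CPM. KO tumours had Gzma counts in 6 of 6 tumours of day 10 (127 CPM) and in 5 of 5 of day 16 (105 CPM). Both control tumours of day 16 were of line 18, with 24 and 26 CD8 T cells. DESeq2 also called 1 gene. In cells with little line-cell RNA (at least 10 a tumour) 11 of 1160 genes passed in edgeR (0.948%), 5 with a change more positive in KO tumours and 6 with one more negative. The former were Gzma, Tnfrsf9 (4-1BB, a costimulatory receptor) with a log2 difference of 2.27, the T cell receptor gene Trbc1 with 2.89, Anxa2 with 1.83 and Lgals1 with 1.24. Anxa2 and Lgals1 were 649 and 2408 CPM in these CD8 T cells. In cells without Ptprc and Cd3 UMIs they were 1872 and 8721 CPM, and the part of line-cell RNA was not tested. Among the latter were the interferon-induced Isg15 with -2.85 and Ly6c2 with -1.71 (SE 0.42, edgeR adjusted p = 0.0486).

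T cell receptor beta variable segments (Trbv) give a coarse view of clonality, because cells of a clone share a segment but a segment is shared by many clones. Of the 1735 CD8 T cells, 1065 had UMIs of exactly 1 Trbv gene, 540 of none and 130 of more. The 3 most frequent segments were Trbv12-2 (143 cells, 13.4%, in 28 tumours), Trbv19 (141 cells, 13.2%, in 27 tumours) and Trbv13-1 (99 cells, 9.30%, in 22 tumours). This order pools tumours of unequal size: 51 of the Trbv12-2 cells and 46 of the Trbv13-1 cells each came from 1 tumour of line 24, and 41 of the Trbv19 cells from 1 WT tumour. The chance that 2 cells of a tumour share a segment had a median of 0.0958 over 13 tumours with at least 20 such cells, from 0.0441 to 0.308. For 2 cells of different tumours the median was 0.0596 over 78 pairs of tumours, from 0.0253 to 0.175. The highest value was in the WT tumour of day 16, where Trbv19 was in 41 of 76 cells (53.9%).

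The day 16 tumours of line 24 each had a different leading segment. Trbv15 was in 23 of 79 cells (29.1%) of the first, Trbv12-2 in 51 of 222 (23.0%) of the second and Trbv13-1 in 46 of 142 (32.4%) of the third. Their sharing values were 0.192, 0.122 and 0.169. In line 24 on day 10, Trbv19 led 1 tumour with 21 of 72 cells (29.2%). KO tumours (0.100 ± 0.0503 SD, n = 10) and control tumours (0.0836 ± 0.0184 SD, n = 2) could not be compared at the 0.05 threshold. Both control tumours are of day 10, so labels could be exchanged only with the 3 KO tumours of that day. The exact permutation test within days then has 10 arrangements and cannot give less than 0.1 (p = 0.5). Without line 24 the difference was -0.0107.

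**Figure D5:**
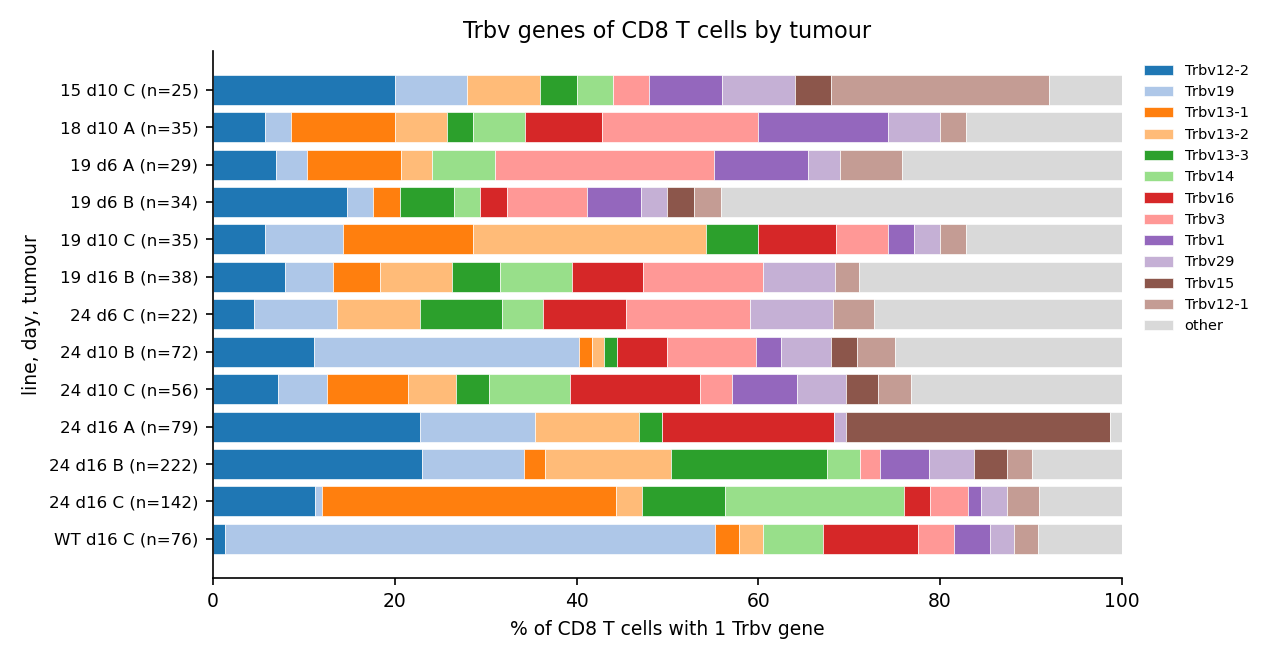
Share of each Trbv gene among CD8 T cells with exactly 1 Trbv gene, in the 13 tumours with at least 20 such cells; rows give line, day, tumour letter and number of cells, and colours are the 12 most frequent genes with the rest in grey. Trbv19 fills 53.9% of the WT row, and the 3 rows of line 24 on day 16 are led by Trbv15, Trbv12-2 and Trbv13-1.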

How the data were processed

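Per the labels' protocols, live-sorted, hashtagged tumour cells were profiled with a 10x 5′ kit. Per the submitters' processing notes, the authors used Cell Ranger 6.0.0 and mm10 to make the deposited UMI count matrices, 6 of genes and 6 of hashtags. Counts were used as deposited. Barcodes needed at least 300 genes, at most 15% mitochondrial UMIs, and a top hashtag of at least 20 counts and 3 times the next. This left 116375 of 176381 barcodes. Before these filters the libraries held 151385933 to 239699029 UMIs each. The hashtag call removes doublets of different tumours. No doublet caller was run, so those within a tumour remain.

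Counts were summed per tumour (at least 20 gated cells, or 10 for cells with little line-cell RNA) and tested with edgeR 4.0.16 quasi-likelihood (filterByExpr, TMM, Benjamini-Hochberg adjusted p under 0.05) in R 4.3.3, with DESeq2 1.42.0 as an alternative. Shares were compared by two-sided permutation tests within days (scipy 1.17.1). The edgeR step was tested on simulated data. Positions are from GENCODE M21 on mm10. Levels are CPM, TMM-scaled where stated.

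Named genes are the 185 genes of 14 lists and the largest called changes (10 each way between groups or cell types, 5 between days, 3 for the interaction), leaving out receptor segments and gate genes. For KO against control, both KO line means had to lie on 1 side of both control line means. The members and lists were chosen with earlier results of these data known. Alternatives covered the gate, hashtag call, filter, normalization, library, line and line-cell RNA. A gene of the memory list is not reported here. Tumours of WT were left out of every comparison, and 2 hashtags, of line 24 on day 6 and line 18 on day 0, had no assigned cell.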

Additional observations from a re-analysis of the deposited data

Results flagged for a closer look

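Single tumours stood far from the rest of their group in 13 of 72 groups examined by the gap to the nearest value relative to the range, where the nominal chance rate of the rule is about 1 in 20; how far it holds for these skewed values was not tested. In line 15 the highest CD8 T cell share was 1.97%, on day 10, with the next at 0.741%. In line 18 the highest was 1.45%, also on day 10, with the next at 0.738%. These 2 tumours are also 2 of the 4 control tumours in the gene comparison.

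In the comparison with CD4 T cells, single tumours stood apart in CD8 T cells for Dapl1 (96.4 CPM, next 49.7), Sidt1 (77.1, next 40.4), Cd40lg (13.4, next 4.30) and Ccl1 (96.4, next 40.2). In CD4 T cells they stood apart for Prf1 (18.8 CPM, next 6.23), Ly6c2 (584, next 143), Cd160 (48.3, next 11.3) and Sidt1 (56.5, next 7.33). The same held in CD4 T cells for Cd40lg (282 CPM, next 105), Ccl1 (763, next 414) and Cd70 (167, next 59.2). The CD4 values of Prf1, Ly6c2, Sidt1 and Cd40lg are all of 1 tumour, of line 24 on day 10, with 33 CD4 T cells. In that small sum 18.8 CPM was the lowest level above 0 among the leading genes. The Cd160 value is of a line 24 tumour of day 16 with 22 CD4 T cells.

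The change of Gzma from day 10 to day 16 differed between KO and control tumours by a fitted 10.18 on the log2 scale, an interaction test in edgeR (adjusted p = 0.0122); with control tumours of day 16 at 0 counts, the fitted size depends on the prior count and is no estimate of a fold.

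The WT tumour of day 16, which the labels put in no group and no comparison used, held 4.71% CD8 T cells (126 of 2678), against 0.738% in the highest control tumour of that day.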

How the results depend on the processing

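The CD8 share was higher in KO tumours under every alternative run; the difference missed the threshold within the mixed libraries (1.46 percentage points) and on day 10 alone (0.919), and ranged from 0.630 to 3.02 when 1 line was left out. For CD8 per regulatory T cell, the difference passed on day 16 alone (3.21), reversed on day 10 alone (-1.06), and ranged from 0.527 to 2.02 with 1 line left out. The Trbv sharing difference reversed in the mixed libraries (-0.00346) and ranged from -0.0107 to 0.0347 with 1 line left out. For KO against control, the 45 called genes became 26 with at least 10 cells, 93 in DESeq2, 163 without the count filter, 16 in single-line and 2 in mixed libraries. They became 0 with library as a term, the stricter gate, cells of mixed content removed, 1 sum per line (in either cell set), sums per line and day, cells rich in line-cell RNA, and mixed libraries with little of it. In cells with little line-cell RNA (at least 10 a tumour) 84 were called, 92 in DESeq2 and 82 with RLE size factors; leaving out 1 line or control tumour gave 0 (line 18) to 43, and 5 (line 18) to 82 in cells with little line-cell RNA. For CD8 against CD4 the 189 calls became 287 with at least 10 cells, 364 and 378 (RLE) in cells with little line-cell RNA and 49 with the stricter gate, and, with 1 KO line left out, 23 (line 24) or 174 (line 19), no control tumour being in this comparison, and 178 to 379 (359 without line 15) in cells with little line-cell RNA. For day 16 against day 10 the 2 calls became 0 (at least 10 cells, the stricter gate, little line-cell RNA with at least 10 cells, also with RLE), 6 (little line-cell RNA) or 36 (no filter), and 0 to 9 with 1 line left out. Day 10 against day 6 went from 0 to 1 (line within library as block), 28 (no filter) or 3 (stricter gate), and 0 to 6 with 1 line left out. The interaction went from 1 to 11 and 10 (RLE) in cells with little line-cell RNA and 5 without the filter; it was not run with the stricter gate, without mixed cells or at 20 cells with little line-cell RNA, where too few control tumours remained. Where counts moved, the cause was not tested.

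Named genes that passed in the first fit or under the alternative changed sign for KO against control as follows. Cd7 went to -0.16 (at least 10 cells), -0.037 (sums per line and day), -0.37 (little line-cell RNA, 1 sum per line) and -0.26 (little line-cell RNA, line 18 left out). Mt1 went to 0.21, 0.33, 0.35 (RLE), 0.35 (DESeq2), 0.36 (mixed) and 0.63 (1 sum per line) with little line-cell RNA, and to 0.31 to 0.39 with little of it and 1 line left out. With little line-cell RNA (at least 10 cells), Cd2 went to -0.54, Ptprc to -0.00033 and, in the mixed libraries only, Cd9 to 0.25, while Il2rb went to -0.28 in the cells rich in it. With both little line-cell RNA and 1 line left out, Hspb1 went to 0.25, Ccl5 to -0.027, Ptprc to -0.063 and -0.051 and, for CD8 against CD4, Rgs1 to 0.17. Over all named genes and the alternatives that change their samples or settings, 1286 values stayed on their side of the threshold (direction was not counted for genes passing in neither fit), 550 no longer passed it, 67 newly passed it and 23 reversed. No paired analysis was possible because the hashtag letters are only names; the CD8 and CD4 comparison was paired within tumours. The gene comparison between groups has only 4 control tumours with 139 CD8 T cells.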

Other observations

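Among conventional CD4 T cells with 1 Trbv gene, Trbv26 was in 146 of 481 cells (30.4%), against 21 of 1065 CD8 T cells (1.97%). In single tumours with at least 10 such CD4 T cells its share ran from 0% to 69.2% over 16 tumours.

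The 3 WT tumours held 0.345% (11 of 3184 cells), 0.663% (21 of 3167) and 4.71% (126 of 2678, exact 95% interval 3.93% to 5.58%, counting error only) CD8 T cells on days 6, 10 and 16. Trbv19 led in the last 2, with 9 of 17 cells (52.9%) on day 10 and 41 of 76 (53.9%) on day 16. Their cells without Ptprc and Cd3 UMIs held 2365 CPM of Mif.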
